A study of Mus musculus with 6 samples.

Results

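The mitochondrial genome encoded genes were taken as every gene whose row names MT as its chromosome, which gave 35 of the 54093 genes with complete values. They comprised 13 protein genes, 2 rRNA genes and 20 tRNA genes, of which 26 lay on the plus strand and 9 on the minus strand. RNA was sequenced from right atria (RAs) of WT C57BL/6 mice at postnatal day 21 (P21), with 3 libraries from sham-operated mice (sham 1 to sham 3) and 3 from mice with volume overload (VO 1 to VO 3). Volume overload was produced by an aortocaval fistula (ACF), a puncture joining the abdominal aorta to the inferior vena cava, made at P7. The tissue was whole RA myocardium rather than sorted cells, and the comparison asked which RNAs differed between VO and sham RAs of the same age. Coordinates and strands of all 35 genes were identical to the GRCm38 annotation, which lists 37 genes on this chromosome. The other two, mt-Tf and mt-Tk, were not analysed here.

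The mitochondrial genome is a small circular DNA kept in many copies per cell. Each of its strands is transcribed as a long RNA that runs through many genes, and the tRNAs, which sit between most protein and rRNA genes, are cut out to release the RNAs beside them. Its proteins are core subunits of respiratory complexes I, III and IV and of ATP synthase, while all other subunits, and every protein that copies, transcribes or translates this genome, come from nuclear genes. Heart muscle is dense in mitochondria, so these RNAs are abundant in it.

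The libraries held 15963082 to 17237903 fragments on genes. Levels are given in FPKM, which divides fragments by gene length and by the size of the library. For a gene 1 kilobase long, 1 FPKM corresponded to between 15.6 and 18.1 fragments. Cell type marker genes moved between libraries as well. The summed FPKM of 12 cardiomyocyte markers ranged from 23609.5 to 29998 in sham and from 11849.7 to 20795 in VO. VO 1 had the highest sum of 10 leukocyte markers, at 691 against 152 to 181 in sham. VO 3 had the highest sum of 5 white adipocyte markers, at 222 against 34.0 to 46.8 in sham, and was the library in which Ucp1, the uncoupling protein of brown fat, was read, at 254 FPKM against 0 in the other 5. Of the other marker lists, the summed FPKM in sham and in VO was 1029 to 1054 and 1049.9 to 1459 for 8 fibroblast genes, 202 to 213 and 213 to 222 for 6 endothelial genes, and 395 to 809.6 and 262 to 859.5 for 7 brown adipocyte genes. It was 147 to 203 and 58.5 to 103 for 8 skeletal muscle genes, 132 to 317 and 96.4 to 149 for 4 ventricle genes, and 1198 to 6972 and 695 to 8580 for 5 red cell genes. Most of the brown adipocyte sum came from Cox7a1 and Cox8b, at 126 to 341 and 258 to 457 FPKM in sham. Most of the skeletal muscle sum came from Ckm, at 143 to 199 in sham and 56.4 to 101 in VO, while Myh1 was at 0 throughout. These sums are therefore not read as amounts of brown fat or skeletal muscle. At an unadjusted p under 0.05 in limma, the genes lower in VO were 4 of 12 tested cardiomyocyte, 2 of 3 skeletal muscle (Ckm and Tnni2), 2 of 3 ventricle and 1 of 6 endothelial markers, beside 8.08% of all tested genes. The genes higher in VO were 2 of 8 fibroblast, 1 of 8 leukocyte and 1 of 6 endothelial markers, beside 3.89% of all tested genes, and no brown adipocyte, white adipocyte or red cell marker passed in either direction. The part of cell makeup in the values below was not tested, and in bulk tissue fewer cells of a type and less RNA per cell cannot be told apart.

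The share of all fragments that came from mitochondrial genes overlapped between the groups. The genes took 14.2%, 13.8% and 15.4% of the fragments in sham 1 to 3 (14.5% ± 0.840, SD, n = 3) and 14.5%, 14.4% and 16.3% in VO 1 to 3 (15.1% ± 1.05). VO 3 was the highest library and sham 3 the next. With the 2 rRNA genes left out, the share was 13.9% ± 0.850 in sham and 14.4% ± 1.08 in VO. Of the mitochondrial fragments, protein genes held 94.6% ± 0.779 in sham and 94.5% ± 0.672 in VO, and rRNA genes 4.92% ± 0.781 and 4.99% ± 0.680. The tRNA genes held 0.444%, 0.453% and 0.442% of them in sham 1 to 3 and 0.466%, 0.486% and 0.477% in VO 1 to 3, so that every VO library was above every sham library. In fragments, this was 10409, 10780 and 11483 in sham and 11377, 11180 and 12639 in VO. The tRNA gene mt-Tn alone held 834, 893 and 1141 of these in sham and 1796, 1757 and 1969 in VO. The share without mt-Tn was not computed, so no shift of the tRNA genes as a class is read from it. Among all genes, 8 of the 10 highest by mean FPKM were mitochondrial, as were 12 of the top 20, 18 of the top 50 and 20 of the top 100. The highest gene by mean FPKM was mt-Co1, which alone held 41.4% ± 1.96 of the mitochondrial fragments in sham and 40.6% ± 1.33 in VO. Rankings here and below are of fragments as assigned to genes. They may not follow RNA abundance, since 5 protein genes have almost whole copies on chromosome 1, described below. The part of these copies in the rankings was not tested.

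A mean of at least 1 FPKM was reached by 32 of the 35 genes. These were tested along with all other genes above that level (12627 in all) by limma's moderated test on log2(FPKM + 0.1), so that a log2 fold change is on that scale. At an unadjusted p under 0.05, 3 of the 32 were lower in VO, namely mt-Co3, mt-Ta and mt-Ty, which is 9.38% beside 8.08% of all tested genes. The genes mt-Tn and mt-Tq were higher, 2 of 32 or 6.25%, beside 3.89% of all tested genes. Both shares were near those of all genes. None of the 32 had a Benjamini-Hochberg adjusted p under 0.05 in limma, a level passed by 0.00792% of all tested genes, and the lowest adjusted p was 0.157, for mt-Co3 and mt-Ta. The 3 sham and 3 VO values did not overlap for 4 genes lower in VO (mt-Co3, mt-Ta, mt-Ty and mt-Te) and for 1 higher in VO (mt-Tn), beside 12.9% and 8.25% of all tested genes. In the other 27 the groups overlapped. The median log2 fold change was -0.06 over the 32 genes, -0.08 over the 13 protein genes, 0.02 over the 2 rRNA genes and 0.05 over the 17 tested tRNA genes, beside -0.01 over all tested genes. The protein median was 0.11 when libraries were scaled to the sum of nuclear genes, so no direction is given for the protein genes as a group. The count of lower genes was 5 without sham 1 and without VO 3. The count of higher genes was 1 without sham 2, VO 2 or VO 3, and 4 without sham 3.

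**Figure D1:**
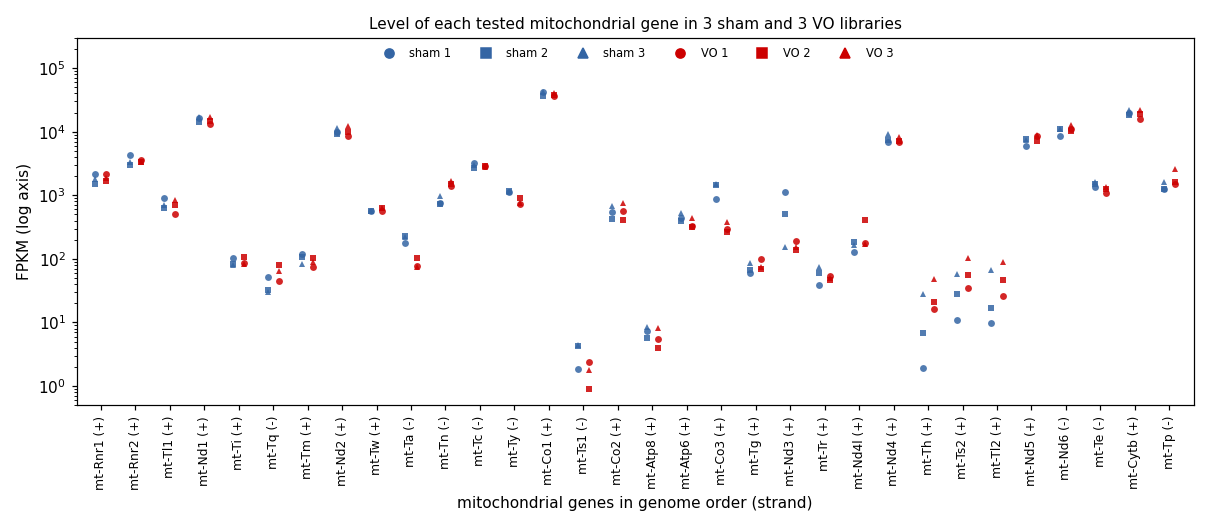
FPKM (log axis) of the 32 tested mitochondrial genes in genome order, with the annotated strand in brackets; each point is 1 library, sham in blue and VO in red. Mean levels run from 2.59 FPKM for mt-Ts1 to 39102 for mt-Co1, and the red and blue points are apart for mt-Co3, mt-Ta, mt-Tn, mt-Ty and mt-Te.

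Complex I takes electrons from NADH, and 7 of its subunits are encoded here. Its highest member by mean FPKM was mt-Nd1, part of the membrane arm, at 16264.5, 14308 and 17242 FPKM in sham 1 to 3 and 13106, 14576 and 17313 in VO 1 to 3. Its lowest was mt-Nd4l, a small membrane subunit, at 127, 184 and 164 FPKM in sham and 178, 411 and 172 in VO. Both overlapped between groups, and VO 2 stood above the other 5 libraries for mt-Nd4l. The level of mt-Nd6, the membrane subunit that is the single protein gene of the minus strand, was 8422, 10856 and 11029 FPKM in sham and 11122, 10324 and 12889 in VO (log2 fold change 0.18, SE 0.25, limma adjusted p = 0.741). The strand of mt-Nd6 is that of the annotation, and its level may hold reads from the opposite strand. The mean FPKM of mt-Nd2, mt-Nd4 and mt-Nd5 lay between 7627 and 10193, with log2 fold changes from -0.08 to 0.22. No complex I gene passed the unadjusted threshold, and their median log2 fold change was -0.01.

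Among the protein genes, the SD within a group was largest relative to the mean for mt-Nd3 in sham, another membrane subunit of complex I, which is named here after its values were seen. Its levels were 1112, 499 and 154 FPKM in sham 1 to 3 and 194, 140 and 152 in VO 1 to 3. Sham 1 and sham 2 stood above the other 4 libraries, while sham 3 lay within the VO range. The log2 fold change was -1.45 (SE 0.64, limma unadjusted p = 0.0573, adjusted p = 0.414). Without sham 3 it was -2.22 (unadjusted p = 7.9e-04), and without sham 1 it was -0.79 (unadjusted p = 0.156).

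Complex III is represented by mt-Cytb, its cytochrome b subunit, which had the highest mean level after mt-Co1. Its levels were 19930.4, 18026 and 21631 FPKM in sham 1 to 3 and 15645, 18889 and 22269.7 in VO 1 to 3. VO 1 was the lowest and VO 3 the highest of the 6 libraries, and the groups overlapped (log2 fold change -0.08, SE 0.29, limma adjusted p = 0.916). Of ATP synthase, mt-Atp6, the subunit of its proton channel, was read at 433, 388 and 525 FPKM in sham and 327, 319 and 436 in VO (log2 fold change -0.32, SE 0.18, limma adjusted p = 0.472). Its partner mt-Atp8 shares 43 bases with mt-Atp6 and was the lowest protein gene, at 7.25, 5.69 and 8.43 FPKM in sham and 5.40, 3.91 and 8.05 in VO, on 13 to 28 fragments per library. Neither gene separated the groups. Copies of mt-Atp8 between annotated nuclear genes were not searched, so its low level may not follow RNA abundance.

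Complex IV, which passes electrons to oxygen, held the highest protein gene and the one that differed most. The catalytic subunit mt-Co1 was read at 42543, 35913 and 41659 FPKM in sham 1 to 3 and 35886, 37881 and 40728 in VO 1 to 3, and mt-Co2, which receives electrons from cytochrome c, at 555, 421 and 679 in sham and 564, 405 and 743 in VO. The groups overlapped for both, with log2 fold changes of -0.07 and 0.03. The third core subunit, mt-Co3 (ENSMUSG00000064358, MT:8607-9390, plus strand), was read at 871, 1476 and 1519 FPKM in sham (1289 ± 363) and 291, 269 and 381 in VO (314 ± 59.5). Every VO library was below every sham library, and sham 1 was the lowest of the sham group. The level was 4.03-fold lower in VO by the fitted log2 fold change of -2.01 (SE 0.26, limma unadjusted p = 1.04e-04, adjusted p = 0.157). When single libraries were omitted, the log2 fold change stayed between -2.27 and -1.87, and the unadjusted p stayed under 0.05.

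The differences of the genes on either side of mt-Co3 were smaller. On its 5′ side mt-Atp6, with which it shares 1 base, had a log2 fold change of -0.32, and on its 3′ side mt-Tg, the glycine tRNA, which begins with no gap, had 0.19. The ratio of mt-Co3 to mt-Atp6 was 2.01, 3.81 and 2.89 in sham 1 to 3 (2.90 ± 0.899) and 0.891, 0.843 and 0.876 in VO 1 to 3 (0.870 ± 0.0244). The ratio of mt-Co3 to mt-Co1, in percent, was 3.27 ± 1.08 in sham and 0.820 ± 0.113 in VO. In neither ratio, both chosen after the values were seen, did the groups overlap, and no test was run on them.

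**Figure D2:**
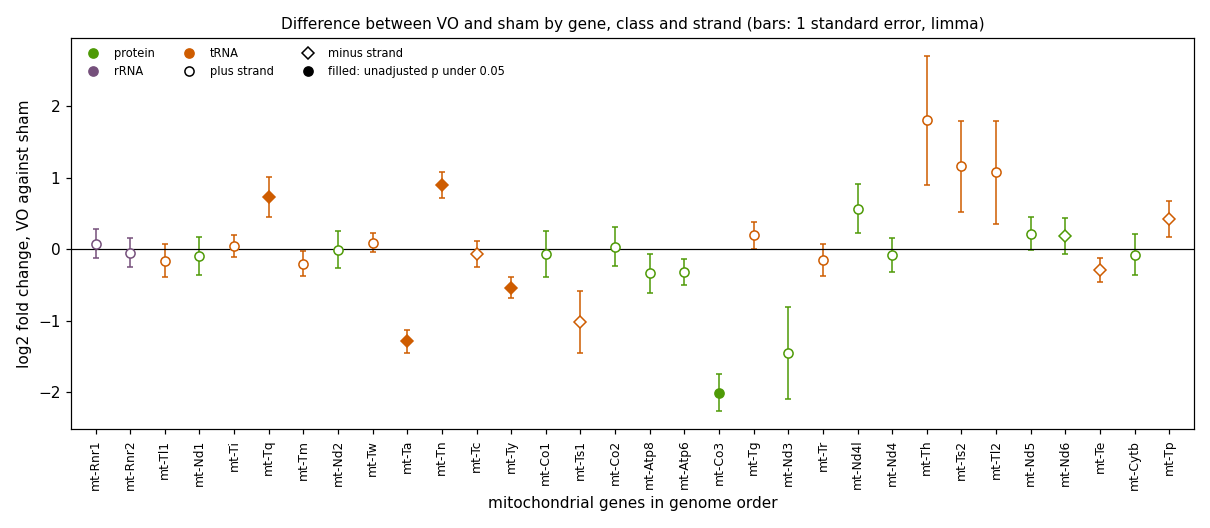
Fitted log2 fold change of VO against sham, with bars of 1 standard error (limma, 3 libraries per group), for the 32 tested mitochondrial genes in genome order; filled symbols have an unadjusted p under 0.05 and diamonds lie on the minus strand. mt-Co3 at -2.01 stands apart from its neighbours mt-Atp6 and mt-Tg, and the 4 filled tRNA genes are all diamonds.

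Part of the protein genes is also present, nearly letter for letter, in a row of annotated pseudogenes on chromosome 1 (GRCm38 24611535 to 24616197, minus strand). By alignment of GENCODE M21 transcripts, 7 mitochondrial genes had a nuclear copy of at least 99% identity there. Of the 13 protein genes, 5 were copied almost whole, which were mt-Co2 by Gm28661, mt-Atp6 by Gm10925, mt-Co3 by Gm28437, mt-Nd3 by Gm28438 and mt-Nd4l by Gm10222. The last 483 of the 1545 bases of mt-Co1 matched Gm29216, and the first 876 of the 1378 bases of mt-Nd4 matched Gm28439. Below 99% identity, Gm13340 on chromosome 2 matched all 1545 bases of mt-Co1 at 97.6%, on 574 to 1060 fragments per library. Also on chromosome 2, Gm13341 (mt-Co2, 95.9%) had 17 to 66 and Gm13339 (part of mt-Nd2, 96.7%) had 12 to 56. Further matches below 99% lay on other chromosomes. The 5 genes copied almost whole had mean levels of 206 to 801 FPKM and the 2 partly copied on chromosome 1 7661 and 39102. The 5 others apart from mt-Atp8 had 7627 to 19399. The gene mt-Atp8 lies between mt-Co2 and mt-Atp6, which are both copied there. Sequence between the annotated pseudogenes was not searched, so whether mt-Atp8 or tRNA genes are copied there too was not tested. The last 60 bases that mt-Co3 (MT:9330-9389, plus strand) shares with Gm28437 (chr1:24613189-24613248, minus strand) are shown because the 783 aligned bases held 0 mismatches, so that a fragment within them carries no base that tells its origin.
mt-Co3: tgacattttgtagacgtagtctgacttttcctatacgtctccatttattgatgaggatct
Gm28437: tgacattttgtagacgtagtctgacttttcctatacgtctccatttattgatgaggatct
The first 33 bases of mt-Nd3 (MT:9459-9491, plus strand) and of Gm28438 (chr1:24613087-24613119, minus strand) are shown because they hold the 1 mismatch of that pair, T3C, in capitals, with positions counted from 1 at the 5′ end of the gene and the mitochondrial base given first.
mt-Nd3: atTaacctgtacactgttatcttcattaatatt
Gm28438: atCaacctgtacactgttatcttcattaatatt
How fragments that align equally well to both places were counted is not given in the sources used here.

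There were 10623, 19949 and 19399 fragments on mt-Co3 in sham 1 to 3 and 4142, 3441 and 4918 in VO 1 to 3, and 2565, 1968 and 5239 on Gm28437 in sham and 1927, 2040 and 2520 in VO. The copy overlapped between groups (log2 fold change -0.52, SE 0.36, limma adjusted p = 0.524). Of the fragments on either gene, 80.6%, 91.0% and 78.7% were assigned to mt-Co3 in sham and 68.2%, 62.8% and 66.1% in VO. With the fragments of both genes added, an alternative chosen after the data were seen, the log2 fold change was -1.67 (SE 0.25, limma unadjusted p = 2.85e-04, adjusted p = 0.247). For mt-Nd3 with Gm28438 added it was -1.37 (SE 0.61, unadjusted p = 0.0579). These sums hold only fragments that were assigned to a gene. They cannot bring back any fragments left out because they fit both places, so they do not correct for the copies. The part of the copies in the levels was not tested.

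**Figure D3:**
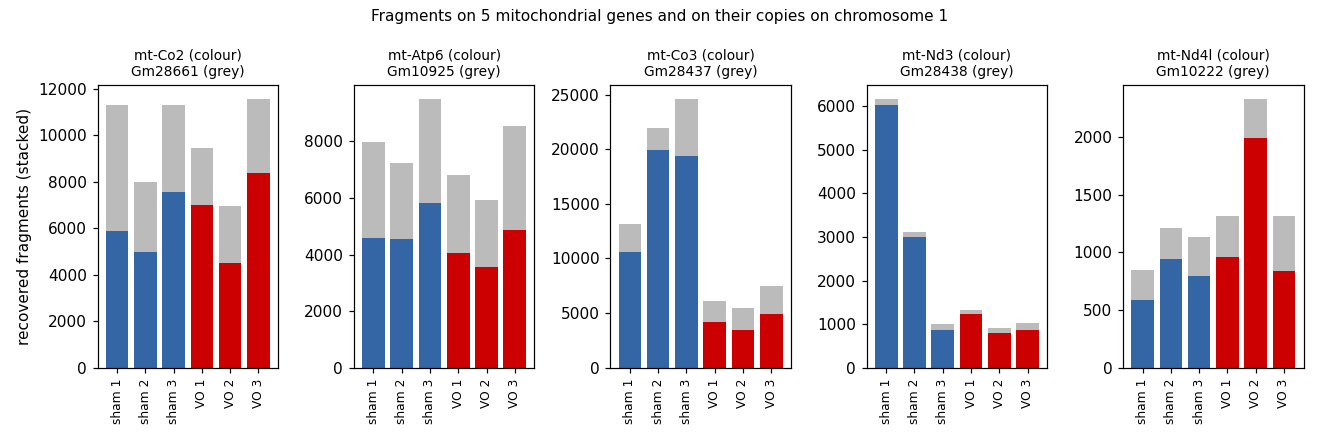
Fragments per library on 5 mitochondrial protein genes (blue in sham, red in VO) stacked with those on the chromosome 1 pseudogene that copies each almost whole (grey), with a separate axis per pair. The sum for mt-Co3 with Gm28437 is 13188 to 24638 in sham and 5481 to 7438 in VO, while mt-Nd3 is high in sham 1 and sham 2 and low in sham 3.

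The 2 rRNA genes, which form the core of the mitochondrial ribosome, overlapped between the groups. The small subunit RNA mt-Rnr1 was read at 2162, 1499 and 1789 FPKM in sham 1 to 3 and 2184, 1671 and 1874 in VO 1 to 3 (log2 fold change 0.08, SE 0.21, limma adjusted p = 0.877). The large subunit RNA mt-Rnr2 was read at 4238, 3028 and 3397 FPKM in sham and 3561, 3322 and 3342 in VO (log2 fold change -0.05, SE 0.21, limma adjusted p = 0.933). Sham 1 was the highest sham library for both, and the ratio of mt-Rnr2 to mt-Rnr1 was 1.96 ± 0.0602 in sham and 1.80 ± 0.180 in VO, with overlap.

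The tRNA genes, which carry amino acids to that ribosome, are 59 to 75 bases long, shorter than a single 150-base read, and 16 of the 20 have a gap of at most 3 bases or an overlap on both sides. A fragment on a tRNA gene therefore usually covers part of a neighbour too, and how such fragments were counted is not given in the sources used here. Of the 20, 17 were tested. The remaining mt-Tv, mt-Td and mt-Tt had at most 3 fragments in a library. Levels differed by strand: 4 of the 8 minus-strand genes had a mean above 1000 FPKM (mt-Tc, mt-Tp, mt-Te and mt-Tn) and 0 of the 12 on the plus strand did, with a median of the mean FPKM of 1075 on the minus and 51.0 on the plus strand. The strand is that of the annotation. Whether the counting used the strand of the reads is not given in the sources used here, so these levels may hold reads from the opposite strand at the same place.

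Of the tested tRNA genes, 4 of the 8 on the minus strand and 0 of the 9 on the plus strand had an unadjusted p under 0.05 in limma, and whether the strands differ was not tested. Among 187 tested genes under 200 bases outside the mitochondrial genome, 12 were lower and 13 higher at that threshold, beside 8.08% and 3.89% of all tested genes, with a median log2 fold change of 0.04. Between mt-Nd2 and mt-Co1 lies a cluster of 5 tRNA genes that held 3 of the 4. In genome order it runs from mt-Tw on the plus strand through mt-Ta, mt-Tn, mt-Tc and mt-Ty on the minus strand, with gaps of 1 or 2 bases except for 32 bases between mt-Tn and mt-Tc, where the replication origin of the light strand lies. The 4 minus-strand sequences, for alanine, asparagine, cysteine and tyrosine, are shown whole because they are adjacent and yet differed in direction. They are from GENCODE M21 on GRCm38, at MT:5018-5086, MT:5089-5159, MT:5192-5257 and MT:5260-5326, with the anticodon in capitals.
mt-Ta: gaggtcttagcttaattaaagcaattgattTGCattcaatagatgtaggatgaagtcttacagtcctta
mt-Tn: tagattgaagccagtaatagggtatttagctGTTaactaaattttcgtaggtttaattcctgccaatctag
mt-Tc: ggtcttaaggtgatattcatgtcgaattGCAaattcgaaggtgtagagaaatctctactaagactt
mt-Ty: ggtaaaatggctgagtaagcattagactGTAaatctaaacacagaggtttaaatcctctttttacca

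Within this cluster, mt-Ta and mt-Ty were lower in VO, mt-Tn was higher, and mt-Tc and mt-Tw overlapped between groups. The alanine tRNA mt-Ta (ENSMUSG00000064347) was read at 181, 228 and 217 FPKM in sham 1 to 3 and 78.3, 103 and 75.8 in VO 1 to 3, on 86 to 271 fragments. Every VO library was below every sham library (log2 fold change -1.29, SE 0.16, limma adjusted p = 0.157). The asparagine tRNA mt-Tn (ENSMUSG00000064348), which is 2 bases away, was read at 755, 729.6 and 987 FPKM in sham (824 ± 142) and 1394, 1518 and 1686 in VO (1533 ± 147), on 834 to 1969 fragments. Every VO library was above every sham library (log2 fold change 0.90, SE 0.18, limma unadjusted p = 0.00158, adjusted p = 0.319). For the cysteine tRNA mt-Tc (ENSMUSG00000064349), the highest of all tRNA genes, the levels were 3270.4, 2670.25 and 2998 FPKM in sham and 2937, 2843 and 2744 in VO (log2 fold change -0.06, SE 0.18, limma adjusted p = 0.885). The tyrosine tRNA mt-Ty (ENSMUSG00000064350) was read at 1134, 1167 and 1142 FPKM in sham (1148 ± 17.3) and 729.6, 906 and 749 in VO (795 ± 97.0). Its groups did not overlap (log2 fold change -0.54, SE 0.15, limma unadjusted p = 0.0097, adjusted p = 0.391), but under quantile normalization the log2 fold change was -0.07 (unadjusted p = 0.683). On the plus strand, the tryptophan tRNA mt-Tw, named as part of the cluster after its values were seen, had 567, 567 and 576 FPKM in sham and 563, 628 and 633 in VO.

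Ratios between these neighbours, chosen after their values were seen, do not depend on the scaling of a library. The ratio of mt-Tn to mt-Ta was 4.18, 3.20 and 4.54 in sham 1 to 3 (3.97 ± 0.694) and 17.8, 14.7 and 22.3 in VO 1 to 3 (18.3 ± 3.79). The ratio of mt-Tn to mt-Ty was 0.718 ± 0.128 in sham and 1.95 ± 0.290 in VO, and that of mt-Tc to mt-Ty was 2.60 ± 0.299 and 3.61 ± 0.447. None of the 3 ratios overlapped between groups, and no test was run on them. The differences in mt-Ta and mt-Tn kept an unadjusted p under 0.05 with each library left out in turn, with log2 fold changes from -1.43 to -1.21 and from 0.82 to 1.04. The best match of mt-Tn among other transcripts was a stretch of 71 bases in Cep295 at 91.5% identity, and Cep295 had 180 to 334 fragments over its whole length in a library.

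**Figure D4:**
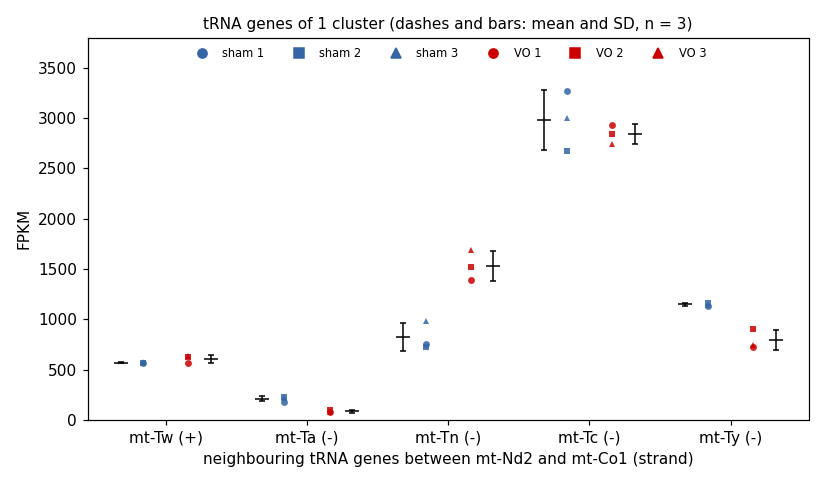
FPKM of the 5 adjacent tRNA genes between mt-Nd2 and mt-Co1; each point is 1 library (sham in blue, VO in red), and dashes with bars give the mean and SD of the 3 libraries of a group. The VO points lie below the sham points for mt-Ta and mt-Ty, above them for mt-Tn, and among them for mt-Tc.

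Outside the cluster, the glutamine tRNA mt-Tq (ENSMUSG00000064343, MT:3772-3842, minus strand) was the other higher gene, on 35 to 93 fragments. It was read at 51.6, 31.9 and 30.3 FPKM in sham 1 to 3 and 44.2, 80.3 and 64.2 in VO 1 to 3. The groups overlapped, since sham 1 lay above VO 1 (log2 fold change 0.73, SE 0.28, limma unadjusted p = 0.0337, adjusted p = 0.410). Its unadjusted p was 0.105 without sham 2, 0.11 without sham 3, 0.111 without VO 2 and 0.0804 without VO 3. The glutamate tRNA mt-Te, beside mt-Nd6 with no gap, was read at 1373, 1519 and 1616 FPKM in sham and 1084, 1234 and 1362 in VO, with no overlap (log2 fold change -0.30, SE 0.17, limma unadjusted p = 0.121, adjusted p = 0.466). The proline tRNA mt-Tp, the last gene before the control region, was read at 1239, 1265 and 1604 FPKM in sham and 1486, 1596 and 2563 in VO (log2 fold change 0.42, SE 0.25, limma adjusted p = 0.480), where VO 3 stood above the other 5. Of the other tested tRNA genes, mt-Tl1, the leucine tRNA joined to mt-Rnr2 with no gap, had 506 to 910 FPKM, and the remaining ones on the plus strand, apart from mt-Tw, had means from 20.6 to 96.4 FPKM. The lowest tested tRNA gene was mt-Ts1, a serine tRNA on the minus strand, with 1 to 5 fragments in a library.

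A run of 3 neighbours between mt-Nd4 and mt-Nd5, namely mt-Th, mt-Ts2 and mt-Tl2 for histidine, serine and leucine, had the same order of libraries, which was noticed after the values were seen. From low to high it was sham 1, sham 2, VO 1, VO 2, sham 3 and VO 3 in each. The levels ran from 1.92 to 49.0 FPKM for mt-Th, from 10.9 to 103 for mt-Ts2 and from 9.96 to 89.1 for mt-Tl2, on 2 to 104 fragments. Their log2 fold changes were 1.80, 1.16 and 1.08, and with sham 3 above VO 1 and VO 2 none passed the unadjusted threshold in limma (SE 0.91, 0.63 and 0.73). The 3 genes adjoin or overlap by 1 base, so a fragment may cover more than 1 of them.

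On the minus strand, mt-Nd6 overlaps mt-Nd5 of the plus strand by 14 bases. The ratio of mt-Nd6 to mt-Nd5 was 1.39, 1.42 and 1.48 in sham 1 to 3 and 1.32, 1.42 and 1.45 in VO 1 to 3, and the groups overlapped. The 9 minus-strand genes held 3.26%, 4.45% and 3.96% of the mitochondrial fragments in sham and 4.68%, 4.20% and 4.54% in VO, also with overlap. Sham 1 was the lowest library, as it was for mt-Nd6 itself. Here too, whether the counting used the strand of the reads is not given in the sources used. The level of mt-Nd6, its ratio to mt-Nd5 and the minus-strand share may therefore hold reads from the opposite strand.

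A list of 45 nuclear genes serves the mitochondrial genome by transcription, RNA stability, tRNA processing or DNA replication. Of these, 41 were tested, 4 were lower in VO at an unadjusted p under 0.05 in limma, 0 were higher and 0 passed after adjustment. The lower share was 9.76%, near the 8.08% of all tested genes. Their median log2 fold change was -0.13, with 33 below 0, and was not computed under the other scalings. The 4 were Tfb1m, which methylates the small rRNA (1.93 ± 0.138 FPKM in sham and 1.27 ± 0.0762 in VO, log2 fold change -0.56), Mrpl12, a ribosomal protein also known to bind the mitochondrial RNA polymerase (36.1 ± 7.45 and 20.7 ± 6.33, -0.83), and the RNA-binding FASTK family members Tbrg4 (11.5 ± 0.189 and 9.01 ± 0.948, -0.36) and Fastk (39.5 ± 2.27 and 31.1 ± 5.47, -0.36). Their adjusted p-values were 0.404, 0.404, 0.404 and 0.414. The groups did not overlap for these 4 and Pde12, which trims RNA tails, all lower in VO, or for Rrm2b, a subunit of ribonucleotide reductase, which was higher. That is 5 and 1 of 41, beside 12.9% and 8.25% of all tested genes. Pde12 and Rrm2b, named after their values were seen, had unadjusted p-values of 0.118 and 0.366 in limma. By group, 2 of 10 tested genes of transcription, 2 of 16 of RNA stability and polyadenylation, 0 of 5 of tRNA processing and 0 of 10 of DNA replication were lower.

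The genes that start transcription overlapped between the groups. The polymerase Polrmt was read at 3.61, 5.72 and 4.94 FPKM in sham 1 to 3 and 4.06, 3.93 and 4.98 in VO 1 to 3, and Tfam, which packages the genome and starts its transcription, at 11.1, 9.69 and 11.4 in sham and 8.06, 9.38 and 11.8 in VO. Tfb2m, which opens the promoter with them, was read at 18.3, 15.4 and 15.99 FPKM in sham and 12.6, 13.5 and 16.2 in VO. Lrpprc, which stabilises the mRNAs, was read at 14.7, 16.6 and 16.3 in sham and 12.7, 15.1 and 17.9 in VO. VO 1 was the lowest VO library for 3 of these 4, all but Polrmt, and their log2 fold changes were -0.12, -0.15, -0.24 and -0.07 for Polrmt, Tfam, Tfb2m and Lrpprc.

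Nuclear genes of the respiratory chain and of the mitochondrial ribosome gave other medians than the mitochondrial protein genes. The respiratory chain list was picked by symbol (Nduf, Sdh, Uqcr, Cyc1, Cox4i, Cox5 to Cox8 and Atp5). It includes the Sdh genes of complex II, which has no mitochondrial gene. The symbol rule also takes in Ndufaf genes, which are assembly factors rather than subunits. Of the 91 tested genes on this list, 33 were lower and 0 higher at an unadjusted p under 0.05 in limma. Their median log2 fold change was -0.45, with 90 below 0. The 13 mitochondrial protein genes had 1 lower, 0 higher and a median of -0.08. Of all tested genes, 8.08% were lower and 3.89% higher at that threshold. Of 77 tested mitochondrial ribosomal protein genes, 20 were lower and 0 higher, with a median of -0.36. The summed FPKM of the respiratory chain list was 19787, 13585 and 13308 in sham 1 to 3 and 8307, 12179.6 and 12716 in VO 1 to 3. VO 1, which also had the lowest sum of cardiomyocyte markers, was the lowest. The difference between the lists was not tested, and the nuclear lists were not fitted under the other scalings.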

How the data were processed

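RNA of the RA was sequenced in 3 sham and 3 VO libraries, which were grouped by their labels. The authors aligned 150-bp paired-end reads with HISAT2 (2.0.5), counted them on genes with featureCounts (1.5.0-p3) and deposited FPKM, computed from gene length and counts. The submitters' processing notes name GRCm38 and mm10. The counting options and the annotation release are not given in the sources used here. Fragments were recovered from FPKM and gene length, and 100% of values above 0 came out whole (tolerance 0.01). One incomplete line was left out.

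The median-of-ratios factors of the deposited FPKM were 1 in every library, so the deposited values were already on that scale. After scaling with these factors, the 12627 genes whose mean FPKM reached 1 were fitted as log2(FPKM + 0.1), VO against sham and two-sided, by lmFit and trended eBayes of limma 3.58.1 (R 4.3.3). P-values were adjusted by Benjamini-Hochberg across these genes, and 0.05 was the threshold. The fit was also run on simulated data with the same dispersion for every gene. That dispersion was not taken from these libraries, so the run does not measure error rates here. Nothing says that the 3 samples of a group are separate litters or batches, so p-values measure only the spread between these samples. Transcripts of GENCODE M21 were aligned with BLAST+ blastn 2.17.0 (at least 90% identity over at least 60 bases). Copies that lie between genes were not searched. Python 3.11.15 with matplotlib 3.10.9 made the figures.

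The genes, the lists and the ratios were chosen with earlier results of these data known. The rule for named genes gave values per library for the rRNA genes, the highest and lowest protein gene of each complex, mt-Nd6, genes with an unadjusted p under 0.05, the 5 highest tRNA genes and 4 nuclear genes, with the others by range, and the text says where a gene was named outside it. Alternatives were other pseudocounts (1 and 0.01), other minimum means (0.1, 5 and none), other scalings (FPKM as deposited, TPM, TPM over nuclear genes, the fragment total and quantile normalization), robust or untrended eBayes, array weights, voom on the recovered fragments, a block for the replicate number, the omission of each library and, added after the data were seen, fragments of the chromosome 1 copies added to the genes they copy. Since the scaling factors were all 1, FPKM as deposited repeated the main fit.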

Additional observations from a re-analysis of the deposited data

How the results depend on the processing

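FPKM as deposited is among the 22 alternatives and gave the main fit again, so it is no separate check. Across the 22 alternatives mt-Co3, mt-Ta and mt-Tn kept their direction and an unadjusted p under 0.05, with log2 fold changes of -2.27 to -1.64, -1.43 to -1.05 and 0.82 to 1.14, while their adjusted p ranged from 0.0571 to 0.53, from 0.0571 to 0.53 and from 0.186 to 0.666. The count of lower mitochondrial genes, 3 as reported, was 5 with voom on the recovered fragments and 3 to 5 with a library left out. The count of higher ones, 2 as reported, was 4 with quantile normalization, 1 with voom and 1 to 4 with a library left out. The protein median, -0.08 as reported, was 0.11 with TPM over nuclear genes and -0.18 to -0.0017 with a library left out. The tRNA median, 0.05 as reported, was 0.19 with TPM, 0.24 with TPM over nuclear genes, 0.27 with quantile normalization and -0.07 to 0.08 with a library left out. TPM moved the median of all tested genes to 0.13, and TPM over nuclear genes moved it to 0.18. The cause of these shifts was not tested. One sign was kept under all settings by 19 of the 32 genes. Below the threshold of 0.05, mt-Tq was lost in 6 of the 22 alternatives and mt-Ty in 2 (no filter, unadjusted p = 0.12, and quantile normalization, 0.683), while voom added mt-Nd3 (0.0418) and mt-Te (0.0398).

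In the fit with a replicate block, the count of higher genes was 4, mt-Tq had an unadjusted p of 0.0766 and mt-Nd3 one of 0.0324. The numbers were not taken as pairs, since the deviations of same-numbered sham and VO libraries from their group means correlated at -0.108, 0.0112 and -0.0292 across genes. The lowest tRNA genes rest on few fragments, 1 to 5 per library for mt-Ts1 and 2 to 54 for mt-Th, and no direction is drawn from them. Every mitochondrial gene with an unadjusted p under 0.05 had at least 35 fragments in each library. With 3 libraries per group, that cannot show whether depth kept other genes from passing. Fragments per library were also few for mt-Atp8 (13 to 28), mt-Ts2 (10 to 100) and mt-Tl2 (11 to 104).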
